A study of Mus musculus with 22 samples.

Results

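The interferon response and antigen presentation genes followed here were 40 named mouse genes, picked by gene symbol from the 37991 genes of the deposited expression table. They were read in brain endothelial cells of 22 RNA-seq libraries. Of the 40 genes, 39 were measured in every library. Psmb9, an immunoproteasome subunit, was listed at 0 in all 22 libraries under both of its 2 table entries and was not tested. These zeros may come from the counting of a gene with 2 entries, so they do not show that Psmb9 is silent.

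The study asked how the activity of glutamatergic neurons alters the transcriptome of the cells that line brain vessels. DREADDs, engineered receptors that respond to the drug clozapine N-oxide (CNO), were carried in C57BL/6 CamKIIa-tTA; TRE-hM3Dq mice to excite neurons and in C57BL/6 CamKIIa-tTA; TRE-hM4Di mice to inhibit them, under a CamKIIa promoter that drives expression in excitatory forebrain neurons. All of these mice received CNO, controls included, and 3 hours later CD31+ cells were sorted from cortex and hippocampus, giving 4 activation, 4 activation control, 4 silencing and 4 silencing control libraries. In the whisker experiment wild-type C57BL/6 mice explored a new, enriched environment in the dark (whisker-plus, 3 libraries) or were kept in an empty cage without whiskers (whisker-minus, 3 libraries), and each library pooled 5 pairs of barrel cortices. The genotype label of the DREADD controls is the same as that of their treated group, while the series describes littermates without DREADD expression. Enrichment and whisker use therefore changed together in the whisker comparison and cannot be told apart. In bulk sorted cells, fewer cells of a type and less RNA per cell cannot be told apart either.

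Cells sense viral nucleic acid through the RIG-I-like receptors, and the interferons that follow act on neighbouring cells through the receptor subunits Ifnar1 and Ifnar2. The signal reaches the nucleus, where Irf9 and its partners bind a short promoter element, the interferon-stimulated response element (ISRE), while interferon gamma acts on another element, the gamma-activated sequence (GAS). The induced genes restrict viruses, and they also feed the antigen route, in which the immunoproteasome cuts proteins, Tap1 and Tap2 carry the peptides into the endoplasmic reticulum, tapasin (Tapbp) loads them and class I molecules show them to CD8+ T cells. Endothelial cells are known to carry class I molecules without infection.

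To show the element that several of these genes have at their start, promoter sequences were read from RefSeq for GRCm38.p6. Windows of 250 bases before to 50 after the start were given for 34 of the 40 members. The ISRE core, written as GAAA, then 2 free bases (NN), then GAAA, and read on both strands with overlapping matches allowed, was in the windows of 16 of those 34 members and in 3.44% of all 32851 promoters of that table. The GAS pattern TTCNNNGAA was in 8 of the 34 and in 8.30% of all promoters. Below are shorter stretches of those windows, the 150 bases before the start (for Ifitm3 also the 30 after it), for the genes to which the results return, in the strand of the gene and with the ISRE core, or its reverse complement, in capitals. They lie at chr7:140955962-140956111 on the minus strand (Ifitm2), chr7:141010715-141010894 on the minus strand (Ifitm3), chr11:58199406-58199555 on the plus strand (Igtp), chr3:142620513-142620662 on the plus strand (Gbp2), chr19:34640739-34640888 on the plus strand (Ifit1), chr4:156200819-156200968 on the minus strand (Isg15) and chr3:27316927-27317076 on the plus strand (Tnfsf10).
Ifitm2: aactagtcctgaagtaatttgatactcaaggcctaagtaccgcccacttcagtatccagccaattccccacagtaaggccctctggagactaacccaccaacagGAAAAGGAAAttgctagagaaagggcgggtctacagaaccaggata
Ifitm3: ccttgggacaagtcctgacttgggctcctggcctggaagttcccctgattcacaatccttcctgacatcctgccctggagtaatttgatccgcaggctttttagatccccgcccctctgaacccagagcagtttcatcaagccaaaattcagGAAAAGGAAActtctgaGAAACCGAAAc
Igtp: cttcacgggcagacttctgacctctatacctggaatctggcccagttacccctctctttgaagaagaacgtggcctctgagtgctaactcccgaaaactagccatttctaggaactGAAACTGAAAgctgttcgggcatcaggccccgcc
Gbp2: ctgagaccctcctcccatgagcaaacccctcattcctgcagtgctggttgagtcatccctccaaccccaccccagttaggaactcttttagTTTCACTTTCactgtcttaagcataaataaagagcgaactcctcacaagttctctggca
Ifit1: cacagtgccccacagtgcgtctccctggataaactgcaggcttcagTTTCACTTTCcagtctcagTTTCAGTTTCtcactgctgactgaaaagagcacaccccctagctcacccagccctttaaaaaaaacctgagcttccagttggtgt
Isg15: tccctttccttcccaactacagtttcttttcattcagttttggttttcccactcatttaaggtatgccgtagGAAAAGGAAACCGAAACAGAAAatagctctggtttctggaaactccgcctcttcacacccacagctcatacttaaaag
Tnfsf10: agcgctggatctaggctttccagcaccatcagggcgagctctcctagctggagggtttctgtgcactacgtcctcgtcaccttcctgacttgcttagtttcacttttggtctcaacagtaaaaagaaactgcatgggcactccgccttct
Ifitm2 and Ifitm3 hold the same core, GAAAAGGAAA, with that of Ifitm3 just past the annotated start. Isg15 holds 3 overlapping cores in a single run and Ifit1 a pair of separate ones. The Tnfsf10 stretch holds none with these letters. A match of letters is a description of the window and not a binding site.

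Expression is given as CPM, a gene's share of its library's counted reads, as deposited. Library totals ran from 18387666 to 25163689 reads for activation and its controls, from 25897142 to 32957916 for silencing and its controls, and from 44187482 to 57673270 for the whisker libraries. Mitochondrial genes took 1.08% to 1.42% of them. The 12 endothelial markers summed to 25752 to 30535 CPM in every library. The 10 leukocyte markers summed to 0.982 to 4.88 CPM and the 6 border macrophage markers to 1.93 to 5.86 CPM. The 10 microglia markers reached 43.7 to 135 CPM, and the 10 pericyte and smooth muscle markers 828 to 2830 CPM. Each of these marker genes had reads in at least 1 library.

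Without any infection in the design, all 39 measured members were expressed above 5 CPM in every library, from 10.6 CPM (Dhx58 at its lowest) to 1866 CPM (B2m at its highest). Compared per length, as CPM per kb of exon averaged over the 3 control groups, the class I molecules led. B2m, the light chain of every class I molecule, stood at 1354 CPM per kb, and the heavy chains H2-D1 and H2-K1 at 427 and 344. Ifitm3 (334) and Ifitm2 (152), membrane proteins that block virus entry, came next, then Bst2 (tetherin, which holds budding virus at the surface) at 106 and Isg15, a ubiquitin-like protein joined to other proteins, at 90.1 CPM per kb. The peptide loaders spread from 18.8 (Tap1) and 21.9 (Tap2) to 85.5 CPM per kb (Tapbp), and the remaining immunoproteasome subunits from 15.9 (Psmb8) to 54.3 (Psmb10). Lowest per length were the sensor Dhx58 (6.56), the oligoadenylate synthetase Oas2 (8.11) and Ifit2 (9.995). The H2 heavy chains, the Ifitm, Gbp and Oas genes belong to families of close paralogs whose reads the authors' counting may have split between copies, so their single levels are uncertain.

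Control levels were alike across the 3 experiments. The highest of the 3 control means exceeded the lowest by a median of 1.20 times over the 39 members. Only 3 members exceeded a ratio of 1.5, and Ifitm2 had the highest, at 1.54, with control means of 118 ± 10.98 CPM (SD, n = 4) for activation, 103 ± 13.02 (n = 4) for silencing and 76.9 ± 10.9 (n = 3) for the whisker experiment. Those experiments differ in tissue, genotype and depth, so these ratios describe the groups and were not tested.

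**Figure D1:**
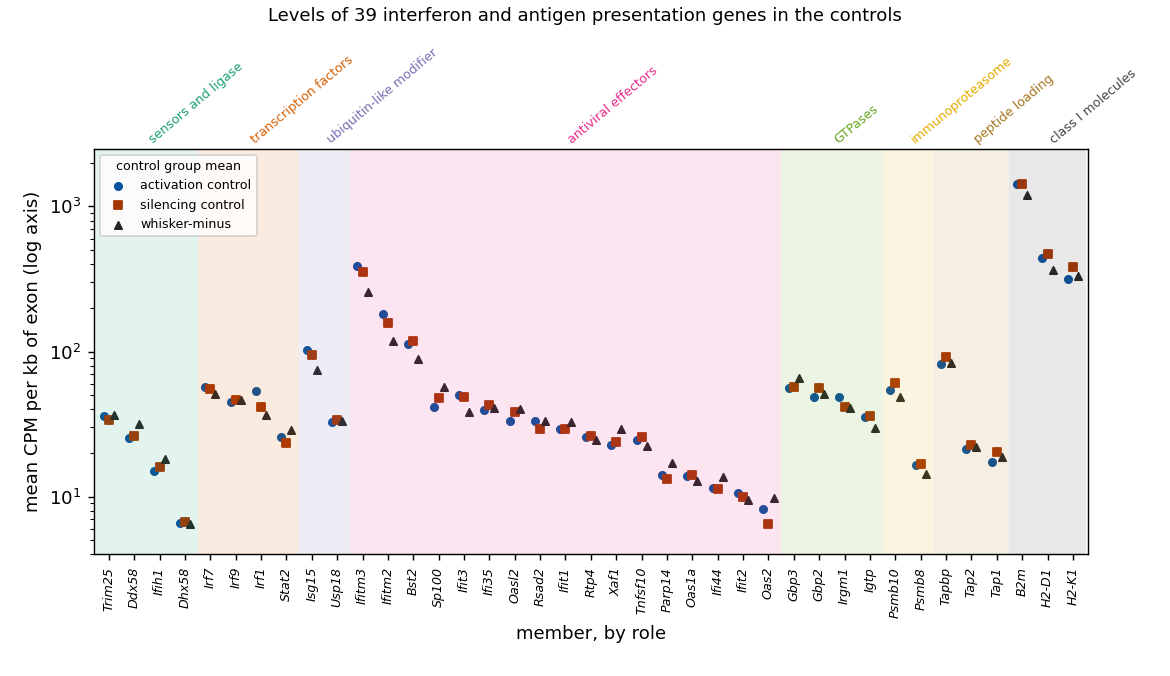
Mean CPM per kb of exon (log axis) of the 39 measured members in the 3 control groups, ordered by role and by level within a role. The class I molecules lie highest, with B2m near 1354, and Dhx58 lies lowest at 6.56 CPM per kb.

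The members varied between libraries of the same group, and did so together. In the activation experiment the pooled standard deviation within groups, on the log2(CPM + 1) scale, had a median of 0.29 over the members and of 0.18 over all 8764 genes with a mean of at least 10 CPM, with 32 of 39 members above the latter. Silencing gave 0.27 against 0.15 over 8838 genes, with 33 of 39 members above. In the whisker experiment, where every library pooled several animals, it was 0.13 against 0.15 over 8798 genes, with 19 of 39 above. Ifi44 (0.61) was the most variable member in the activation experiment, the immunity-related GTPase Igtp (0.49) in the silencing experiment and Oas2 (0.40) in the whisker experiment.

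Single libraries stood apart with most of the members at once. Activation control library 3 had 34 of 39 members above the mean of its own group, with a median of 0.29 on the log2 scale, and activation library 3 had 30 of 39 above, with a median of 0.26. Activation library 1 was the opposite, with 37 of 39 below and a median of -0.24. In the silencing experiment control library 4 (37 of 39 above, median 0.26) and silencing library 2 (35 above, median 0.25) were high, whereas control library 2 (37 below, median -0.24) and silencing library 3 (38 below, median -0.23) were low. Whisker library medians lay between -0.04 and 0.07.

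In the activation experiment the 17 antiviral effectors had a median of 0.49 above their group mean in control library 3 and 0.39 in activation library 3. The ubiquitin-like modifier Isg15 and its protease Usp18 had a median of 0.33 and 0.43 in the same libraries, whereas the immunoproteasome subunits had 0.049 and -0.0051. Ifit1, which binds foreign RNA ends, had 64.6, 50.8, 123 and 73.4 CPM in activation control libraries 1 to 4 and 60.97, 66.1, 119.6 and 69.3 CPM in activation libraries 1 to 4. Its partner Ifit3 had 65.4, 69.9, 153 and 64.6 CPM in those controls and 51.0, 81.4, 101 and 62.7 CPM in those activation libraries. Library 3 was the highest of its group in both groups for both genes, and the groups overlapped. Class I genes followed another order: B2m had 844, 1387, 1453 and 1212 CPM in the activation controls and 1209, 1866, 1377 and 1300.0 CPM after activation. There activation library 2 was high and activation control library 1 low, for B2m, H2-K1 and H2-D1 alike. The activation control library 3 held 22335871 reads and the activation library 3 21144845. Their microglia markers summed to 50.6 CPM, the lowest of the 8 libraries of that experiment, and to 77.5 CPM, and their leukocyte markers to 3.0 and 2.6 CPM. Neuron markers were highest there within each group, at 56.6 CPM in activation control library 3 and 39.7 CPM in activation library 3, and the part of depth and of these markers in the pattern was not tested.

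**Figure D2:**
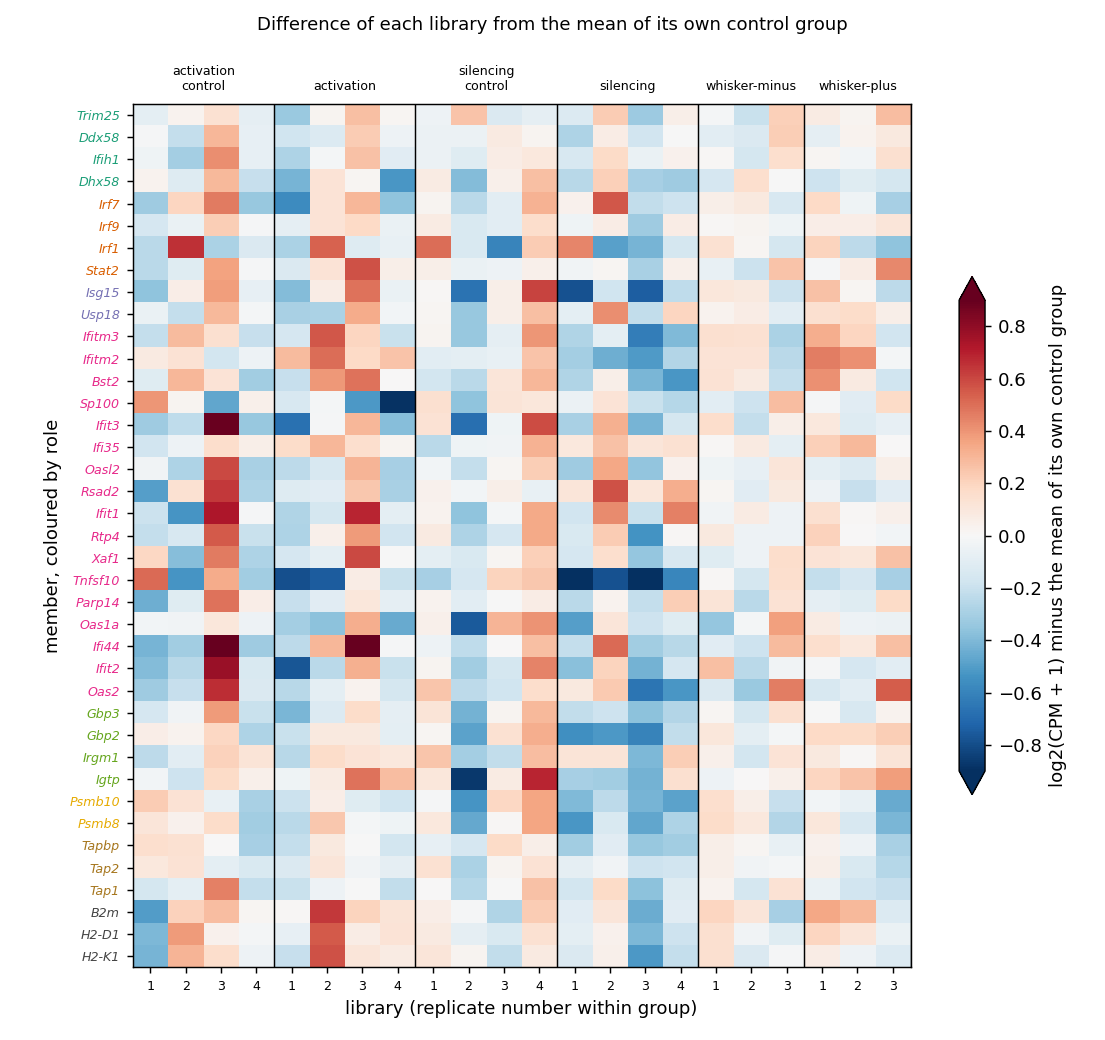
Difference of each library from the mean of its own control group, on the log2(CPM + 1) scale, for 39 members (rows, coloured by role) and 22 libraries (columns); colours end at 0.9 in either direction. Activation library 3 and its control library 3 are high in many antiviral rows, silencing control library 2 is low and control library 4 high, and Tnfsf10 is low in all 4 silencing libraries.

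Activation of glutamatergic neurons for 3 hours moved no member past the threshold, an adjusted p of 0.05 in limma over all tested genes. Of 39 members 0 were called, against a background of 0.14% of 12872 genes (18 genes), and 1 member had an unadjusted p under 0.05, against 11.4% of all genes. With the replicate number as a block, 0 members passed again (1.82% of genes). In that fit 3 members had an unadjusted p under 0.05, where 2501 of all 12872 genes did. On whole reads recovered from the CPM, edgeR (0.0155% of genes) and DESeq2 (2.91%) called 0 members as well. The members' median log2 fold change was -0.028, beside -0.0072 over all tested genes, and 16 of 39 lay above 0, where 48.4% of all genes did. Without activation control library 3 the members' median became 0.11 and 31 of 39 lay above 0, and without activation library 1 it became 0.046 with 24 above 0. The side of 0 on which most members fell therefore changed with single libraries.

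Ifitm2 was the member with the smallest p. It had 125, 129, 105 and 114 CPM in the activation control libraries and 144, 168, 134 and 141 CPM in the activation libraries. All 4 activation libraries lay above all 4 controls, a separation that Ifitm2 alone of the members showed and that 3.65% of all genes showed in that direction. Its log2 fold change was 0.31 ± 0.10 (SE; limma adjusted p = 0.276, and 0.0658 with the replicate block). The close paralog Ifitm3 had 226, 319.6, 289.7 and 227 CPM in controls and 236, 386, 300.4 and 228 CPM after activation, which overlapped (0.10 ± 0.18).

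Other members that came closest were no clearer. Igtp had 70.5, 62.8, 80.8 and 74.0 CPM in controls and 69.7, 75.5, 101 and 87.1 CPM after activation (0.20 ± 0.13; limma adjusted p = 0.605). Ifi35, an interferon-induced leucine zipper protein, had 47.9, 52.4, 60.4 and 56.0 CPM against 60.7, 66.5, 60.1 and 54.8 CPM (0.16 ± 0.10; limma adjusted p = 0.607). Both overlapped, with 3 of 4 activation libraries above the control mean for Igtp and 4 of 4 for Ifi35. On the low side Sp100, a nuclear body protein that silences incoming DNA, had 202, 157, 111 and 159 CPM in controls and 139, 152, 107 and 82.6 CPM after activation (-0.39 ± 0.21; limma adjusted p = 0.516). Tnfsf10, which encodes the death ligand TRAIL, had 176, 85.0, 156 and 98.8 CPM against 71.0, 72.9, 129 and 107 CPM (-0.42 ± 0.25; limma adjusted p = 0.575). Oas1a, an oligoadenylate synthetase that detects double-stranded RNA, had 25.8, 25.7, 28.3 and 25.4 CPM against 21.1, 20.1, 33.1 and 18.9 CPM (-0.20 ± 0.16; limma adjusted p = 0.698). The ranges of both groups overlapped for all 3 of these genes. Every activation library of Sp100 lay below the control mean, while activation library 3 of Tnfsf10 lay at it.

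By role, the 3 class I molecules were all above 0, from 0.14 (H2-K1) to 0.24 (B2m) on the log2 scale, while the 3 peptide loaders and the 4 sensors and ligase were all below 0, from -0.20 (Dhx58) to -0.0064 (Trim25, the ligase that activates RIG-I, which TMM scaling, edgeR and DESeq2 placed above 0). None of these passed, and their smallest limma adjusted p was 0.686.

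**Figure D3:**
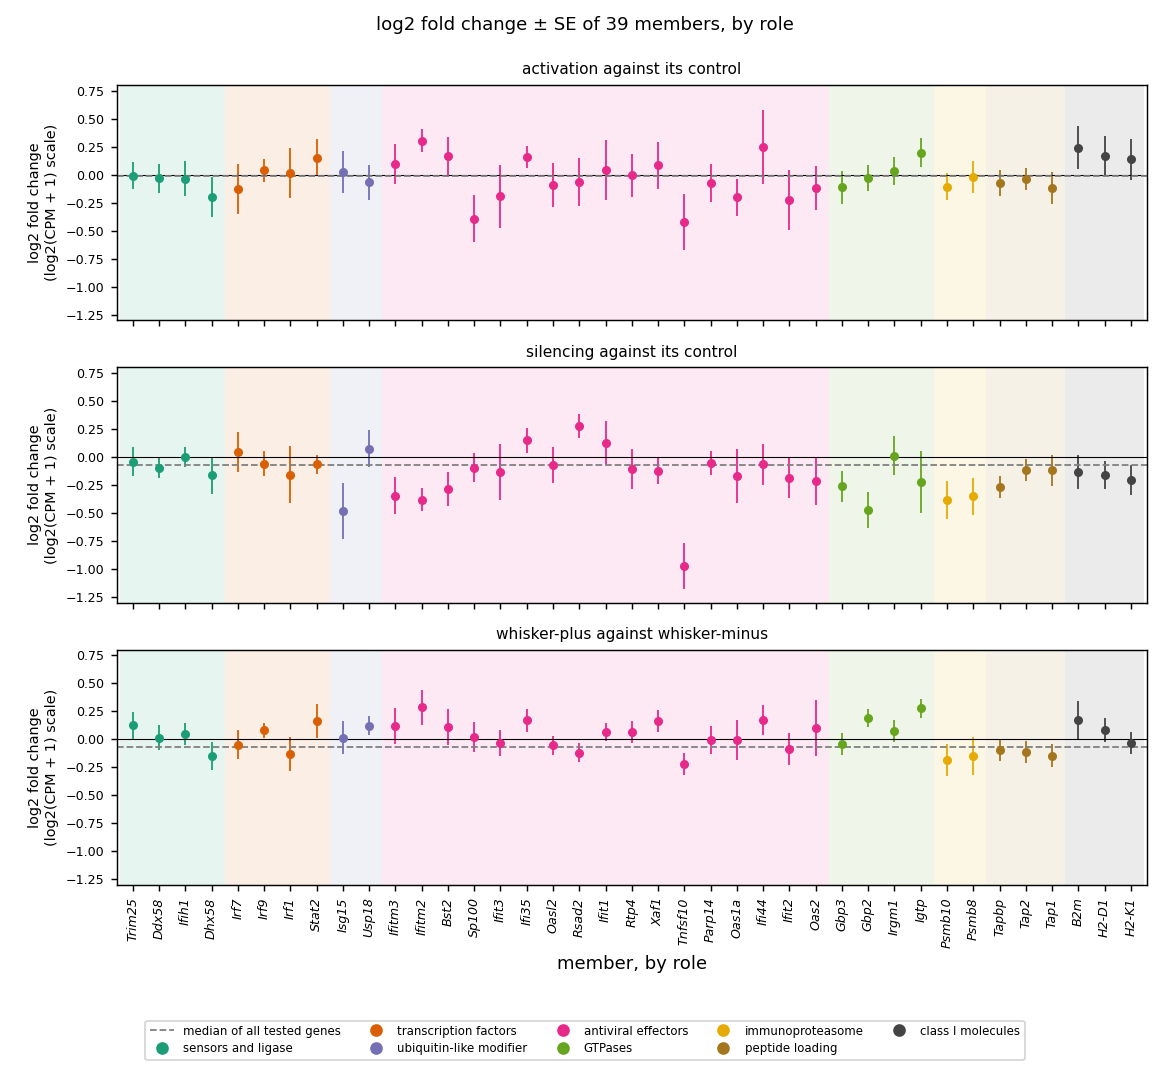
The log2 fold change ± SE of each of the 39 members in the 3 comparisons, on the log2(CPM + 1) scale, with members grouped by role and a dashed line at the median of all tested genes. Tnfsf10 under silencing is the lowest point at -0.97, and Ifitm2 lies above 0 in activation and whisker-plus and below 0 in silencing.

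Under silencing of glutamatergic neurons most members lay slightly below their controls. Of 39 members 32 lay below 0, and the members' median was -0.14, beside -0.07 over all tested genes, of which 33.7% lay above 0. TMM scaling moved the median of all genes to -0.02 and that of the members to -0.08, with 29 members below 0. Markers of other cells differed in the same comparison: 9 of 9 tested microglia markers (median -0.23) and 6 of 7 astrocyte markers (-0.34) lay below 0, while 10 of 10 pericyte and smooth muscle markers lay above (0.32), with 0 of them called. Of the 12 endothelial markers 10 lay below 0 (median -0.10), and limma called 1 lower, without the block and with it. Kdr had 460 to 689 CPM after silencing, below its 1068 to 1493 CPM in controls. The part of all these markers in the members' values was not tested. Without the replicate block limma called 0 members (0.177% of 13017 genes), with 6 at an unadjusted p under 0.05 (16.1% of genes), and edgeR called 0 as well (0.184% of genes). The block called 1 member, Tnfsf10, where 1.04% of genes passed, and DESeq2 called the same gene, with 3.54% of genes passing.

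Tnfsf10 had 109, 121, 155 and 159.5 CPM in silencing control libraries and 44.1, 77.7, 69.7 and 89.2 CPM after silencing. The groups did not overlap, and the mean went from 136 ± 24.8 to 70.2 ± 19.1 CPM (SD, n = 4 each). The log2 fold change was -0.97, with an SE of 0.21 and a limma adjusted p of 0.0907 without the block, and an SE of 0.12 and a limma adjusted p of 0.0226 with it. DESeq2 gave -0.88 with an adjusted p of 0.00311. The authors' deposited table gives -0.69 with an FDR of 0.00369. That deposited table marks 4 members under silencing (10.2% of the tested genes are marked), 1 under activation (10.7%) and 4 in the whisker comparison (9.66%), by the authors' own rule. Leaving out silencing library 1 gave -0.77, the value nearest to 0 of the 8 fits that each left out a library. The blocked call was lost without pair 1, 3 or 4, with limma adjusted p of 0.117, 0.159 and 0.117, and it was kept without pair 2 (0.000182).

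Ifitm2 lay on the other side of its controls from activation. It had 96.0, 96.6, 97.8 and 123 CPM in silencing controls and 82.9, 75.5, 71.7 and 85.4 CPM after silencing, again without overlap, and the log2 fold change was -0.38 ± 0.10 (limma adjusted p = 0.143, and 0.0782 with the block). Ifitm3 had 240.4, 186, 223 and 311 CPM against 196, 223, 153 and 179 CPM, which overlapped (-0.34 ± 0.16; limma adjusted p = 0.333). Gbp2, an interferon-gamma-induced GTPase that attacks vacuoles of intracellular microbes, had 139, 98.2, 151 and 173 CPM in controls and 93.3, 95.9, 90.1 and 118 CPM after silencing. Only control library 2 fell within the silencing range, and the log2 fold change was -0.47 ± 0.16 (limma adjusted p = 0.205, and 0.106 with the block).

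Rsad2 ran against the others. This gene encodes viperin, an enzyme that makes a chain-terminating nucleotide, and it had 114, 109, 115 and 106 CPM in silencing controls and 119.7, 166, 119 and 139 CPM after silencing. All 4 silencing libraries were higher than every control, although the closest values were near to each other, and the log2 fold change was 0.28 ± 0.11 (limma adjusted p = 0.253). Ifi35 (0.15 ± 0.11; limma adjusted p = 0.542) and Ifit1 (0.13 ± 0.19; limma adjusted p = 0.775) also lay above 0 and overlapped. Ifi35 had 48.4, 56.0, 56.3 and 71.7 CPM in controls against 61.4, 69.2, 62.1 and 63.2 CPM, and Ifit1 had 77.8, 58.9, 75.2 and 96.8 CPM against 67.4, 103, 65.9 and 105 CPM. Groups without overlap numbered 3 among the members, 1 higher (Rsad2) and 2 lower (Ifitm2 and Tnfsf10), where 2.25% of all genes were higher and 7.3% lower in this way.

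The antigen route was lower throughout in value, without a call, and so were most related genes outside the members. Of the constitutive proteasome 13 of 14 genes lay below 0 (median -0.23), and of other class I presentation genes 14 of 17 (-0.14), beside -0.07 over all tested genes. Short genes were lower as well: 319 tested genes of 500 to 1000 exon bases and at least 10 CPM on average had a median of -0.17. The part of gene length in these values was not tested. Among the members, both immunoproteasome subunits were below 0 (Psmb10 at -0.38 and Psmb8 at -0.35), as were the 3 peptide loaders (-0.12 to -0.27) and the 3 class I molecules (-0.14 for B2m to -0.20 for H2-K1). The smallest limma adjusted p of these members was 0.220, for Tapbp. Isg15 had 68.1, 42.4, 70.2 and 104 CPM in controls and 38.9, 59.7, 40.03 and 57.8 CPM after silencing (-0.48 ± 0.25; limma adjusted p = 0.371). Silencing control library 2 was the lowest control for Isg15, Gbp2 and Igtp.

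The count of members called under silencing changed with the libraries kept. Without silencing control library 2, limma called 8 members, all lower: Gbp2, Gbp3, Ifitm2, Isg15, Psmb10, Psmb8, Tapbp and Tnfsf10. In that fit 7.35% of all genes were called lower, and 11.5% in either direction. With the block and without the second pair, which drops silencing library 2 as well as control library 2, 23 members were called lower, where 13% of all genes were and 18.4% were called in either direction. Leaving out any other silencing library or pair called 0. Silencing control library 2 had 30023977 reads, and its markers summed to 105.2 CPM for microglia, 576 CPM for astrocytes and 782 CPM for red cells, each the highest of the 4 controls. In that library the endothelial marker Slc2a1 had 11784 CPM, within the silencing range of 9570 to 11826.5 CPM. The other controls had 5437 to 5995 CPM. Xdh, an interferon-stimulated gene outside the members, had 2490 CPM there, within its silencing range of 2003 to 2558.5 CPM. Its other controls had 719 to 970 CPM. Kdr (1068 CPM) and Samhd1 (184 CPM) lay outside their silencing ranges of 460 to 689 and 265 to 315 CPM. The part of depth and of all these genes in the result was not tested.

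Whisker exploration gave small differences that depended on pairing. Without the block limma called 0 members and 0% of 12776 genes, with 2 members at an unadjusted p under 0.05 (13% of genes), and edgeR called 0. The block called 2 members, Ifitm2 and Igtp, both higher, where 8.59% of all genes passed and 2.99% passed as higher. DESeq2 called 1, Igtp, where 3.18% of genes passed. The members' median was 0.02, beside -0.07 over all tested genes, and 22 of 39 lay above 0, where 36% of all genes did. TMM scaling moved the median of all genes to 0.0025 and that of the members to 0.09, with 29 above 0.

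Igtp had 57.7, 59.8 and 61.4 CPM in whisker-minus and 68.4, 71.4 and 77.5 CPM in whisker-plus. The groups did not overlap and all 3 same-numbered pairs were higher in whisker-plus, with a log2 fold change of 0.27 ± 0.08 (limma adjusted p = 0.273) and, with the block, an SE of 0.06 and a limma adjusted p of 0.0313. Ifitm2 had 83.2, 83.2 and 64.4 CPM in whisker-minus and 106, 102 and 75.3 CPM in whisker-plus. Those groups overlapped because library 3 was the lowest of each group, but every pair was higher in whisker-plus, and the log2 fold change was 0.28 ± 0.16 (limma adjusted p = 0.495), or with the block an SE of 0.06 and a limma adjusted p of 0.0235. Leaving out a pair kept a blocked call for Ifitm2 and for Igtp in 1 of the 3 fits, the one without the first pair, in each case. That fit called 2381 of 13031 genes, against 689 of 12865 without pair 2 and 1 of 12826 without pair 3.

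Gbp2 had 138, 121 and 128 CPM in whisker-minus and 146, 145 and 150.1 CPM in whisker-plus, without overlap (0.19 ± 0.08; limma adjusted p = 0.362, and 0.0769 with the block). Irf9, the DNA-binding subunit of the interferon complex, was the other member with separate groups beside Igtp and Gbp2 (0.08 ± 0.07). These 3 members were higher and 0 were lower without overlap, where 5.65% of all genes were higher and 13.4% lower in this way. On the low side, Tnfsf10 had 117, 104 and 129 CPM against 100.1, 105 and 94.2 CPM (-0.22 ± 0.10; limma adjusted p = 0.393), Tap1 had 56.3, 49.3 and 60.3 CPM against 52.7, 48.7 and 47.7 CPM (-0.15 ± 0.10; 0.599), and Rsad2 had 127, 117 and 134 CPM against 122, 109 and 117 CPM (-0.12 ± 0.08; 0.611). All of these overlapped. The 3 peptide loaders and the 2 immunoproteasome subunits lay below 0, from -0.10 to -0.18, while 3 of the 4 GTPases lay above, and all 4 with TMM scaling, which put Gbp3 at 0.04. Microglia markers summed to 58.8 to 135 CPM in whisker-plus and 57.2 to 74.7 CPM in whisker-minus, and astrocyte markers to 283 to 308 CPM against 284 to 1095 CPM. All 9 tested microglia markers (median 0.48) and all 5 red cell markers (0.44) lay above 0. Below 0 were 7 of 7 astrocyte (-1.21), 8 of 10 pericyte and smooth muscle (-0.34) and 3 of 3 tested oligodendrocyte markers (-0.63). The block, with 8.59% of all genes passing, called 6 astrocyte markers lower and 2 red cell markers higher. The part of these markers in the members' differences was not tested.

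**Figure D4:**
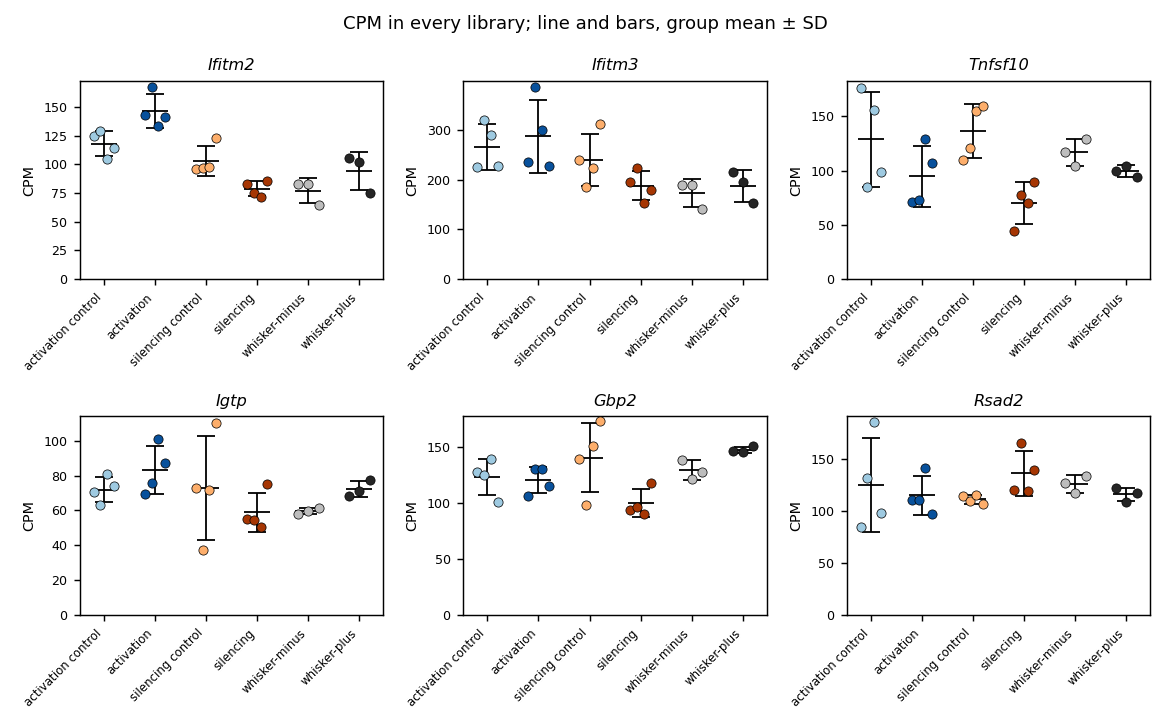
CPM of Ifitm2, Ifitm3, Tnfsf10, Igtp, Gbp2 and Rsad2 in each library (points), with the mean and SD of each group (line and bars). Ifitm2 lies above its controls in all 4 activation libraries and below them in all 4 silencing libraries, and Tnfsf10 lies below its controls in all 4 silencing libraries.

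Activation and silencing share no library, so the difference between their effects was tested directly over the 16 DREADD libraries. Ifitm2 was the single member called of 39, against 2.31% of 13464 genes and 1.46% in its direction. Its activation effect exceeded its silencing effect by 0.69 ± 0.14 on the log2 scale (limma adjusted p = 0.0227, and 0.00561 with the block). With TMM scaling the difference was 0.62 and the limma adjusted p 0.0543. edgeR gave 0.64 with an adjusted p of 0.0509, and DESeq2 0.62 with 0.0131. Of all genes, 6.35% were called with the block, 2.19% by edgeR and 5.64% by DESeq2. Leaving out each library in turn kept it between 0.60 and 0.73 and past the threshold in 12 of 16 fits. The fits without activation control library 3, silencing control library 4, silencing library 2 or silencing library 3 did not pass.

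Ifitm2 is a short gene, with 655 bases of exon in the annotation used, and short genes differed in this contrast. Tested genes of 500 to 1000 exon bases and at least 10 CPM on average had a median difference of 0.17, beside 0.06 over all tested genes, and 9 of these 320 genes exceeded Ifitm2. Under silencing alone such genes had a median of -0.17 (319 genes) and under activation 0.0068 (320 genes). Gene length and its part in the Ifitm2 difference was not tested further.

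None of the other members passed. Gbp2 differed by 0.45 ± 0.21 (limma adjusted p = 0.293) and Bst2 by 0.46 ± 0.25 (0.378). Bst2 had 80.9, 108, 95.6 and 70.3 CPM in activation controls, 75.7, 115, 123 and 87.6 CPM after activation, 82.2, 77.6, 99.3 and 113 CPM in silencing controls and 76.3, 95.5, 69.1 and 63.8 CPM after silencing. Both pairs of groups overlapped for Bst2. Below 0 were Rsad2 (-0.35 ± 0.26; limma adjusted p = 0.570), Sp100 (-0.29 ± 0.27; 0.648) and Usp18, the protease that removes Isg15 and dampens receptor signalling (-0.14 ± 0.24; 0.835). Usp18 had 54.8, 49.1, 70.3 and 56.4 CPM in activation controls, 46.5, 46.7, 72.4 and 56.1 CPM after activation, 60.1, 46.8, 61.6 and 72.0 CPM in silencing controls and 55.9, 79.8, 50.8 and 68.1 CPM after silencing. In all, 27 of 39 members lay above 0 (23 with TMM scaling), where 7831 of 13464 genes did. The members' median was 0.098 beside 0.059 over all tested genes, and it was 0.036 with TMM scaling, 0.028 with RLE scaling and 0.017 with DESeq2.

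The rest of the pathway was read from lists that do not overlap with the members. None of the 9 interferon ligand genes passed the filter of 1 CPM in any comparison, and Ifnb1 and Ifng, which encode interferon beta and interferon gamma, reached at most 0.093 CPM and 0 CPM in any library. Ifnar1 was lower in all 3 comparisons without overlap, the value under silencing being given after its values were seen. Of all genes, 7.3% were lower in this way under silencing and 13.4% in the whisker comparison. The share under activation is not given here. Ifnar1 had 537, 384, 385 and 415 CPM in activation controls and 322, 346, 376 and 349.6 CPM after activation (-0.29 ± 0.12; limma adjusted p = 0.380). Under silencing it went from 395, 326, 444 and 412 CPM to 207, 246, 263 and 309 CPM (-0.62 ± 0.14; limma adjusted p = 0.10, 0.0530 with the block and 0.0123 by DESeq2). In the whisker experiment it had 526, 428 and 463 CPM in whisker-minus against 405, 404 and 394 CPM (-0.23 ± 0.09; limma adjusted p = 0.353, and 0.0515 with the block). With TMM scaling that value was -0.16, with a limma adjusted p of 0.610.

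All 5 tested receptor genes lay below 0 under silencing, from -0.26 (Ifngr1) to -0.65 (Il10rb), with a median of -0.60 beside -0.07 over all tested genes and 0 calls by limma, with the block or without it. DESeq2 called Ifnar1 and Ifnar2, where it called 3.54% of all genes. Ifnar2 went from 158, 126, 181 and 169 CPM in silencing controls to 98.2, 109, 103 and 121 CPM, without overlap (-0.54 ± 0.12; limma adjusted p = 0.10, 0.0684 with the block, and -0.47 with 0.0165 by DESeq2). Ifngr2, a chain of the interferon gamma receptor, differed between activation and silencing by 0.95, with an SE of 0.25 and a limma adjusted p of 0.0533 without the block and an SE of 0.17 and 0.0110 with it. The block called 6.35% of all genes there. For Ifngr2 the limma adjusted p was 0.0633 with TMM scaling, and edgeR gave 0.0673. DESeq2 gave 0.0171, where 5.64% of genes passed. Of 14 tested signalling genes 0 were called in any comparison.

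Samhd1, a nucleotide hydrolase that starves viruses of DNA precursors, was 1 of 14 tested sensing genes. It passed under silencing, where limma without the block called 0.177% of all genes. It had 167, 184, 170.4 and 175 CPM in controls and 272, 315, 265 and 278 CPM after silencing (0.69 ± 0.08; limma adjusted p = 0.0151, and 0.0209 with the block). After activation it was lower, at 116, 124, 136 and 99.3 CPM against 139, 145, 197 and 162 CPM (-0.43 ± 0.13; limma adjusted p = 0.238), and the difference of -1.12 ± 0.16 passed (limma adjusted p = 0.00296). Its order was the reverse of that of Ifitm2. Of the other interferon-stimulated genes, 0 of 51 were called by limma under activation, 0 of 49 under silencing and 0 of 50 in the whisker comparison, and their medians were -0.08, -0.11 and 0.013, beside -0.0072, -0.07 and -0.07 over all tested genes. With the block, which called 1.04% of all genes under silencing, 1 was called there, the GTPase Gbp4. It went from 71.6, 50.3, 67.1 and 79.3 CPM to 36.7, 38.5, 38.4 and 40.9 CPM, without overlap (-0.76, with an SE of 0.11; limma adjusted p = 0.0329, and 0.0522 without the block). In the whisker comparison the block called 8.59% of all genes. Of this list it called Ly6a, a surface protein of endothelial and stem cells, higher (0.28 ± 0.07; limma adjusted p = 0.0370) and the torsin-related Tor3a lower (-0.30 ± 0.07; 0.0258). Tor3a was also called in the difference of effects without the block (-0.80 ± 0.18; limma adjusted p = 0.0338), where 2.31% of all genes were.

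Beyond the members, class I presentation held 17 tested genes, and 0 were called without the block. In the whisker comparison, where the block called 8.59% of all genes, it called 3 of them: the chaperones Canx (0.24 ± 0.05; limma adjusted p = 0.0224) and Pdia3 (0.30 ± 0.06; 0.0194) were higher, and Mr1, which presents vitamin B metabolites, was lower (-0.89 ± 0.14; 0.00818). The 14 constitutive proteasome genes had medians of 0.04 under activation, -0.23 under silencing and -0.02 in the whisker comparison. In the difference of effects 1 of them, Psma3, was called higher (0.51 ± 0.13; limma adjusted p = 0.0474), where 1.46% of all genes were called higher. Class II genes were near the limit of detection: of 8 genes 1, Cd74, the invariant chain, passed the filter in each of the 3 group comparisons. It had 6.53, 1.20, 1.61 and 1.11 CPM in activation controls and 0.798, 1.21, 0.804 and 0.982 CPM after activation, and its log2 fold changes of -0.67, -0.77 and -0.68 under activation, silencing and whisker exploration did not pass (limma adjusted p = 0.507, 0.220 and 0.359).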

How the data were processed

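Endothelial RNA-seq libraries (22) were grouped by the labels. The deposited table gives CPM per gene, and beside it stand the authors' marked genes, each with a log2 fold change, a p-value and an FDR. Per the submitters' processing notes, the authors named HTSeq 0.6.1, SAMtools 0.1.19, Bowtie2 2.2.1, TopHat2 2.0.11, DESeq2 and the mm9 build. The CPM gave whole reads for 100% of values within 0.01 read, so depth was recovered: 18387666 to 57673270 reads per library.

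Each comparison was fitted with limma 3.58.1 (R 4.3.3) on log2(CPM + 1), with a mean-variance trend, over genes that reached 1 CPM in a number of libraries no smaller than that of the smaller group. P-values were adjusted by Benjamini-Hochberg over all tested genes, with a threshold of 0.05. Fold changes on that scale understate changes of low genes. The difference of activation and silencing effects was fitted over 16 libraries. Alternatives were a replicate block, TMM and RLE scaling, a pseudocount of 0.1, no filter, all 22 libraries in a single fit, each library left out, and edgeR 4.0.16 and DESeq2 1.42.0 on recovered reads. Over all genes edgeR called 2, 24 and 0 genes and DESeq2 374, 461 and 406 under activation, silencing and whisker exploration. All per-sample columns were mapped to samples by their names. The fits were tested on simulated data.

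Same-numbered treated and control libraries deviated together (r of 0.28 to 0.45 in activation, 0.14 to 0.60 in silencing, 0.46 to 0.62 in the whisker experiment, over genes), and each library matched its own number best. The numbers were therefore taken as pairs. This comes from the data and not from the labels. For the DREADD groups no label ties a library to an animal or litter, so p-values measure the spread between these libraries, which may be technical.

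The members and lists were chosen with earlier results of these data known. In each comparison, members that passed with or without the block were named, with the 3 above 0 and the 3 below 0 of smallest p. Exon lengths came from the GENCODE basic annotation and were joined by Ensembl gene ID. Promoters came from RefSeq GRCm38.p6 and were joined by gene name only. Both are on a later build than that of the deposited table.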

Additional observations from a re-analysis of the deposited data

Results flagged for a closer look

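Each of the 12 named members was tested in every group of 4 libraries for a library far from the rest. Of these 48 cases 6 had one, and chance gives about 1 in 20 for a single case. Members moved together within libraries, so the cases are not independent and that rate cannot judge their count. Ifitm2 in silencing control library 4 was 122.8 CPM, with the other controls at 96.0 to 97.8. Sp100 in silencing control library 2 was 138.8 CPM, with the others at 192 to 197. Oas1a in activation control library 3 was 28.3 CPM, with the others at 25.4 to 25.8, and in activation library 3 it was 33.1 CPM, with the others at 18.9 to 21.1. Ifit1 in activation library 3 was 119.6 CPM, with the others at 60.97 to 69.3. Tap1 in activation control library 3 was 69.7 CPM, with the others at 43.4 to 47.6. Of these 6 values 4 were in library 3 of the activation experiment.

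The Ifitm2 effect differed between activation and silencing by 0.69 on the log2 scale, tested as a difference of effects in limma (adjusted p = 0.0227).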

How the results depend on the processing

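The number of members called changed with the fit. Under silencing it was 1 with DESeq2, the replicate block, the block with TMM scaling (171 of 13017 genes called), or all 22 libraries in a single fit (211 of 13886). In the whisker comparison it was 1 with DESeq2 and 2 with the replicate block, with or without TMM scaling (723 of 12776 genes called with TMM). In the difference of effects it was 0 with TMM scaling, RLE scaling or edgeR, and the replicate block left it at 1. The whisker median of the members was 0.094 with TMM scaling and with the block and TMM, 0.103 with RLE scaling, 0.086 with edgeR and 0.090 with DESeq2. The cause was not tested.

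With each library left out in turn, the members' median ranged from -0.105 to 0.105 in activation, from -0.218 to -0.060 in silencing, from -0.015 to 0.069 in the whisker comparison and from 0.041 to 0.220 in the difference. Members called ranged from 0 to 0, 0 to 8, 0 to 0 and 0 to 2. The fits with 8 and 2 members called 1504 of 13127 and 915 of 13599 genes. With the replicate block and each pair left out, the medians ranged from -0.065 to 0.030, -0.289 to -0.057, 0.005 to 0.072 and 0.042 to 0.297. Members called then ranged from 0 to 0, 0 to 23, 0 to 5 and 1 to 7. The fits with 23, 5 and 7 members called 2399 of 13018, 2381 of 13031 and 1392 of 13551 genes. With the block and without the second silencing pair, Ifit1 under silencing was -0.094 and Usp18 in the difference 0.085, each the reverse of its sign with all libraries.

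Of 24 named members' results, the other alternatives gave 204 values with the same direction and side of the threshold, 9 newly past it and 3 no longer past it. The block changed no call other than those given. The groups hold 3 or 4 libraries. Under silencing the count of 8 came from leaving out control library 2 and that of 23 from the block without both libraries of pair 2, and the blocked call of Tnfsf10 was lost without pair 1, 3 or 4.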
